A study of Mus musculus with 70 samples.

Results

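The variable (V) genes of the T cell receptor alpha and beta chains were followed through regulatory T cells (Tregs) of 6 mouse tissues. The genes were those of the count table whose annotated symbol begins with Trav or Trbv, whose annotated type is T cell receptor V gene, and which held at least 10 counts summed over the libraries of more than 1000000 counts. They numbered 89, namely 67 Trav and 22 Trbv genes, out of 130 annotated V genes of these loci and 53465 genes in the table. All 22 annotated Trbv genes qualified. The other 41 were Trav genes with 7 counts between them, of which 37 held none.

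A T cell assembles its receptor genes by joining a V segment to shorter diversity or joining segments ahead of the constant region, and passes the result to its daughters. In a pool of unrelated cells many V genes appear, each at a modest share, whereas in a pool filled by a few families of sister cells a few V genes can take large shares. Tregs carry the transcription factor Foxp3 and restrain immune responses, those of visceral adipose tissue (VAT) are known to include expanded families, and many of them carry ST2, the receptor for interleukin-33 encoded by Il1rl1.

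The cells came from 5 male Foxp3-YFP-cre mice, with the Foxp3tm4(YFP/icre)Ayr allele on a B6.129(Cg) background, aged 16.6 to 18.6 weeks and numbered here from the youngest to the oldest, in which YFP fused to Cre is made from the Foxp3 gene. All groups drew on the same 5 untreated animals, and the Tregs were sorted as live CD45.2+ CD4+ YFP+ cells without CD8 or CD11b. ST2+ CD44hi and ST2- CD44hi cells were taken from skin, VAT, colon, lungs, spleen and blood, and ST2- CD44lo CD62L+ cells from spleen and lungs, which made 14 groups of 5 libraries. A library held 220 cells where these could be sorted, and fewer in 3 blood ST2+, 1 blood ST2- and 4 VAT ST2- samples, down to 55 cells. Of 70 libraries, 67 passed 1000000 counts and held between 1304560 and 2759926 counts. Those left out were mouse 1 of blood ST2+ and mice 2 and 5 of colon ST2+, so that these groups had 4 and 3 libraries.

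The 3′ ends of the germline Trbv segments that the results turn on are shown first, because the hypervariable loop that meets the antigen begins at the cysteine codon near the end of each V segment. They are the last 60 bases of the GENCODE transcripts on the GRCm38 build, 5′ to 3′ on the coding strand, with capitals marking the last in-frame cysteine codon that follows a tyrosine, phenylalanine or leucine codon. Trbv16, Trbv30, Trbv13-3 and Trbv15 led the Trbv counts of ST2+ libraries in VAT, and Trbv1 led 2 ST2+ libraries in skin. Between ST2+ and ST2- cells, Trbv2 and Trbv4 passed the test described below in VAT and Trbv12-2 in skin. Each of these calls was lost when certain single mice were left out.
Trbv16: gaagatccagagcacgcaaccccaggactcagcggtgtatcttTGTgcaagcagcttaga
Trbv30: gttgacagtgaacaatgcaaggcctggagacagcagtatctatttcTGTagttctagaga
Trbv13-3: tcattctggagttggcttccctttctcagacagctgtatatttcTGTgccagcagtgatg
Trbv15: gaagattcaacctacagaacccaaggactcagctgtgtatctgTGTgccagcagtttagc
Trbv1: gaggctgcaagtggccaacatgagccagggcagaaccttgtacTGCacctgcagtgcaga
Trbv2: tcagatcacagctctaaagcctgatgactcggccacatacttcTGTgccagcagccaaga
Trbv4: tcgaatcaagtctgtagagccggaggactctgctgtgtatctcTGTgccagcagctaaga
Trbv12-2: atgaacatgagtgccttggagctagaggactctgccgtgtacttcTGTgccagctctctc
All 8 lie on the plus strand of chromosome 6, Trbv1 from 40891229 to 40891885, Trbv2 from 41047340 to 41047995, Trbv4 from 41059394 to 41059886, Trbv12-2 from 41118851 to 41119364, Trbv13-3 from 41130147 to 41130585, Trbv15 from 41141188 to 41141658, Trbv16 from 41151740 to 41152230 and Trbv30 from 41281376 to 41281990. Of the 88 genes in which such a codon was found, Trbv4 was the only one with a stop codon in frame after it. The 22 Trbv genes span 40891229 to 41558452, with Trbv31 alone on the minus strand, and the Trav members lie on chromosome 14 between 52427928 and 53977678.

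Part of the Trav locus is repeated, and 24 Trav members carry the d or n of a copy in their names. The reads were 58 bases long, and 37 of the 41 Trav genes below the minimum had no stretch of 58 bases that was unique to them, against none of the members. Another 23 members, 21 Trav genes with Trbv4 and Trbv5, had under 50% of their stretches unique, so that the split of reads between them and their copies is uncertain. The closest pairs, shown because results below fall on them, differ at the single base in capitals.
Trav13d-1: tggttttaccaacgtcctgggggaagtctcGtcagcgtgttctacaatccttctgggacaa
Trav13n-1: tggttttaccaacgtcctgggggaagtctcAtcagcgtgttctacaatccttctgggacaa
Trav6d-3: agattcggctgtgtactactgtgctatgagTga
Trav6-3: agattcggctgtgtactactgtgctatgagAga
Trav13d-1 (chromosome 14, 52851290 to 52851866) and Trav13n-1 (53162399 to 53162910) differ at 1 of 331 aligned bases, and Trav6d-3 (52725299 to 52726919) and Trav6-3 (53428711 to 53430377) at 1 of 347, all on the plus strand.

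A library held a median of 776 Trav counts (324 to 1444) and 2255 Trbv counts (505 to 3392). Usage is given as a gene's share, in percent, of the Trav or of the Trbv counts of its library. By mean share over 67 libraries, Trbv3 (9.27%), Trbv13-2 (9.20%), Trbv1 (9.06%), Trbv16 (8.84%) and Trbv19 (7.62%) led the beta chain. Taken per length of annotated exon, the mean shares were highest for Trbv13-2 (10.7%), Trbv16 (8.79%), Trbv1 (8.60%) and Trbv3 (8.07%). The least used were Trbv23 (0.845%), Trbv5 (0.607%), Trbv4 (0.574%) and Trbv21 (0.0680%), the last seen in 25 of 67 libraries, while 10 Trbv genes were seen in all. On the alpha chain Trav12-2 (4.03%), Trav14-1 (3.92%), Trav14d-3-dv8 (3.47%) and Trav7-5 (3.46%) were the most used by mean share, and 1 Trav gene of 67 had a count in every library.

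**Figure D1:**
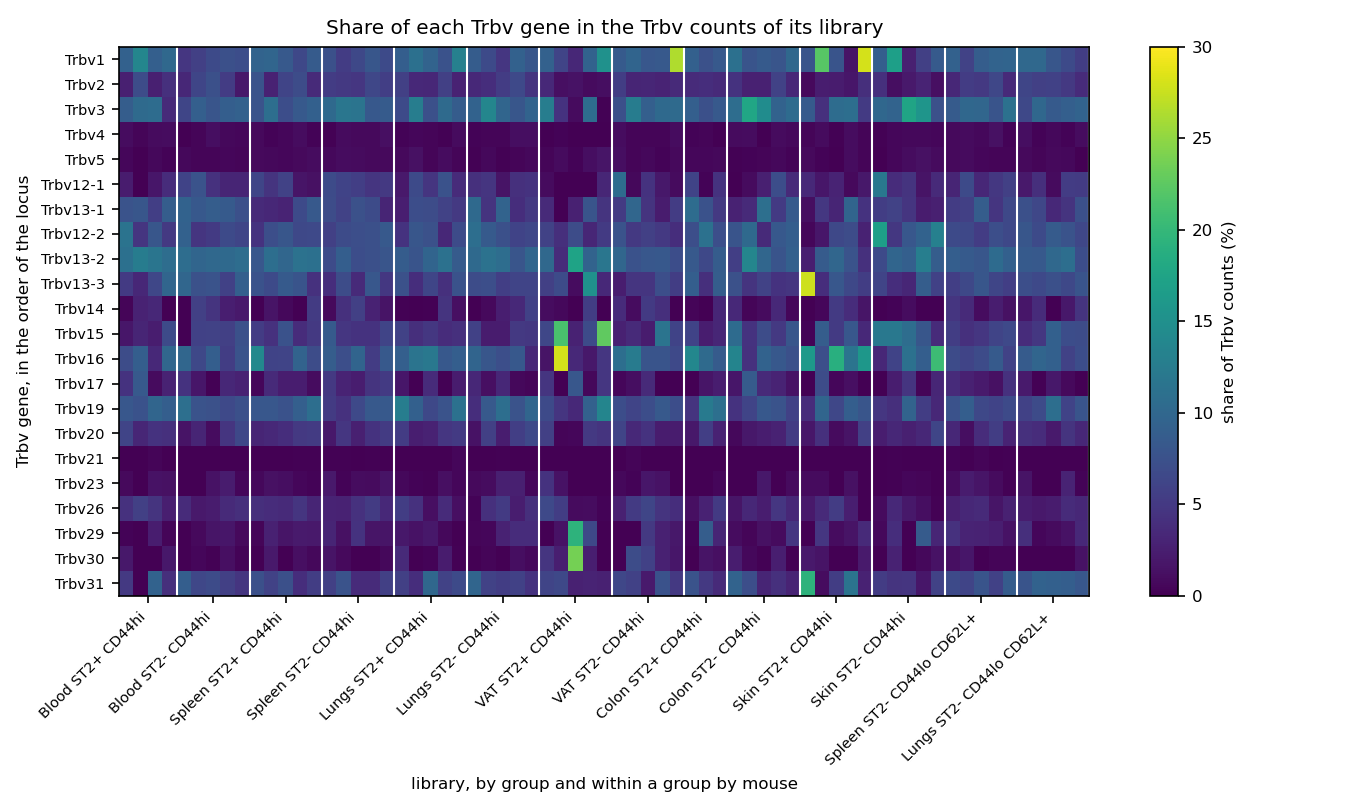
Share of each of the 22 Trbv genes in the Trbv counts of each of the 67 libraries, in percent by colour, with the libraries by group and mouse. Most libraries look alike, and the strongest colours are Trbv16 in VAT ST2+ mouse 2 (28.0%), Trbv1 in skin ST2+ mouse 5 (28.0%), Trbv13-3 in skin ST2+ mouse 1 (27.7%) and Trbv1 in VAT ST2- mouse 5 (26.4%).

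The libraries carried the transcripts that define Tregs, with Foxp3 between 107 and 375 CPM (counts scaled to a library total of 1000000) and Cd4, Cd3e and Trac present in all 67. Il1rl1 averaged 290 to 1326 CPM in the ST2+ groups and at most 24.0 CPM in the ST2- groups other than skin, where it averaged 108.5 ± 55.9 CPM (SD, n = 5). Of the CD8 genes, Cd8a was at 0 in 65 libraries, while Cd8b1 was found in all 67, at 3.77 to 97.0 CPM (median 34.6). Summed over 5 myeloid markers, colon ST2+ libraries held 982 to 1190 CPM and all others at most 207 CPM, and 4 epithelial markers reached 1030 CPM in 1 skin ST2- library. Cd79a, a component of the B cell receptor, stood at 0.7105 to 153 CPM (median 133) in colon ST2+ and 49.6 to 102 CPM (median 60.9) in colon ST2- libraries, with a median of 2.60 CPM over all 67. Their part in the results was not tested.

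By group mean, VAT ST2+ Tregs used their Trav genes least evenly of the 14 groups. Their Trbv genes were used about as unevenly as those of skin ST2+ Tregs. The measure is the effective number, the inverse of the chance that 2 counts drawn from a library come from the same gene, which equals the number of genes if all were used alike. It is a description, with no test. VAT ST2+ libraries had an effective 14.9 ± 7.27 Trav and 9.62 ± 3.25 Trbv genes (SD, n = 5), against 32.4 ± 3.19 and 15.7 ± 0.336 in spleen ST2- CD44hi and 32.6 ± 1.82 and 15.4 ± 0.809 in spleen CD44lo libraries. From mouse 1 to mouse 5 the VAT ST2+ values were 27.9, 11.4, 11.3, 12.5 and 11.4 for Trav and 14.1, 6.78, 7.05, 11.9 and 8.25 for Trbv. Mouse 1, the youngest, lay among the other tissues, and the other 4 mice lay below every VAT ST2- library for Trav. With 1 animal of each age, age and animal cannot be told apart.

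VAT ST2- libraries had 29.6, 18.5, 25.6, 29.9 and 25.5 effective Trav genes in mice 1 to 5, from 220, 93, 192, 118 and 135 cells, while each ST2+ library came from 220 cells. The ST2+ value was lower in 5 of 5 mice, by a mean difference of -10.9 ± 6.39, or -2.45 with Trav genes summed to families. For Trbv the ST2- values were 13.6, 12.7, 16.8, 14.02 and 8.87, and ST2+ was lower in 4 of 5 mice, by -3.60 ± 4.23. The part of the number of sorted cells was not tested. In bulk samples, fewer cells of a kind and less receptor RNA per cell cannot be told apart.

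Skin followed for the beta chain, with 9.65 ± 2.54 effective Trbv genes in ST2+ and 11.1 ± 0.702 in ST2- libraries (n = 5 each), and 20.3 ± 4.30 and 23.3 ± 3.52 Trav genes. The ST2+ libraries of mice 1 to 5 had 6.33, 10.4, 11.0, 12.6 and 7.80 effective Trbv genes, and the value of mouse 1 was the lowest of the 67 libraries. Within a mouse ST2+ was lower in 4 of 5 for each chain, by -3.06 ± 2.80 Trav and -1.49 ± 2.11 Trbv genes. In spleen the ST2+ libraries (12.9 to 14.8 Trbv genes) lay below all ST2- libraries (15.3 to 16.0), by -1.53 ± 0.940 within a mouse. In blood ST2+ was lower for Trbv in 4 of 4 mice, by -1.80 ± 1.03, but the difference of the group means, -1.24, was 0.18 with genes summed to families and lay between -1.80 and -0.71 with a mouse left out. In lungs ST2+ was lower in 4 of 5 mice for each chain, by -1.84 ± 3.50 Trav and -0.67 ± 1.59 Trbv genes. In colon ST2+ was lower in 1 of 3 mice for Trav, with a mean difference of 1.91 ± 2.59, and in 2 of 3 for Trbv, with -0.11 ± 0.747. For Trav it was lower in 3 of 5 mice in spleen, by -2.50 ± 5.82, or 0.72 with genes summed to families, and in 1 of 4 in blood, by -0.99 ± 8.65. The blood ST2+ library of 55 cells, from mouse 3, had 11.7 effective Trav genes, against 26.9 to 32.3 in the other 3 of its group.

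**Figure D2:**
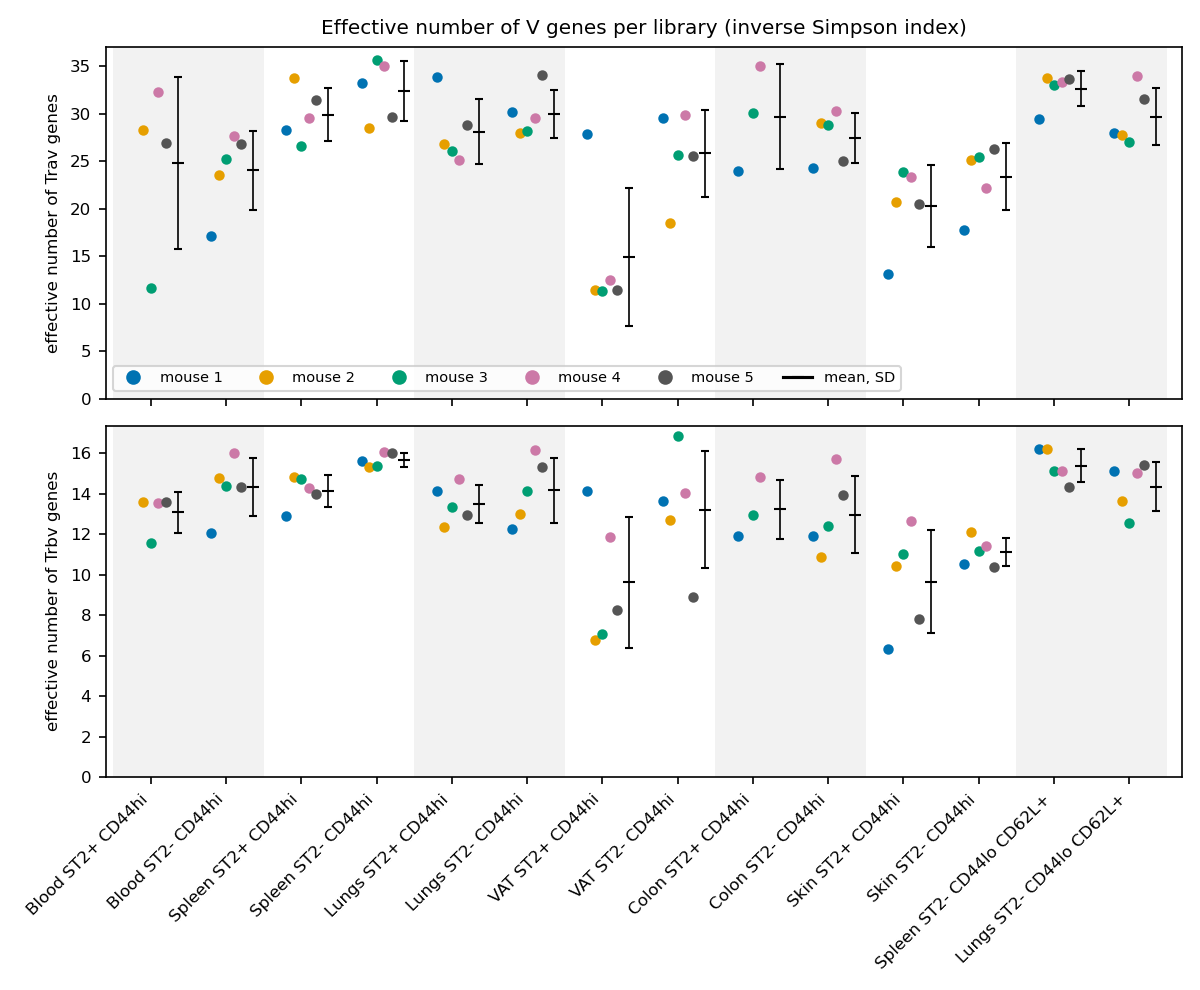
Effective number of Trav and of Trbv genes in each library, by group, with mice told apart and the mean and SD of each group. In VAT ST2+ the Trav values of mice 2 to 5 lie between 11.3 and 12.5 and that of mouse 1 at 27.9.

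The V genes that filled the VAT ST2+ libraries differed from mouse to mouse. The leading beta gene was Trbv3 in mouse 1 (12.7% of Trbv counts), Trbv16 in mouse 2 (28.0%, 370 of 1321 counts, 95% Wilson interval 25.7 to 30.5%), Trbv30 in mouse 3 (23.8%, interval 21.4 to 26.3%), Trbv13-3 in mouse 4 (15.2%) and Trbv15 in mouse 5 (22.7%, interval 20.4 to 25.2%). Intervals cover counting error only, since PCR copies are not independent molecules. The same genes were minor in most other VAT ST2+ libraries. Trbv16 took 1.52, 3.51, 1.97 and 4.80% in mice 1, 3, 4 and 5, and Trbv30 took 4.67, 2.50, 2.52 and 0% in mice 1, 2, 4 and 5. Trbv15 was shared by a pair of mice, at 21.3% in mouse 2 and 22.7% in mouse 5, against 2.93 to 6.83% in the rest. Trbv29 took 19.4% in mouse 3, 6.46% in mouse 4 and at most 1.44% in the others.

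The leading alpha genes were Trav4-4-dv10 in mouse 1 (7.497% of Trav counts), Trav14-2 in mouse 2 (16.3%), Trav19 in mouse 3 (21.5%), Trav6-1 in mouse 4 (19.9%) and Trav14n-3 in mouse 5 (18.2%), of which Trav19, Trav6-1 and Trav14n-3 are named because of their values. Each stood there at its highest of the 67 libraries. The ST2- cells of the same fat pads held these genes at 1.06, 1.05, 0.564, 0 and 1.91%. The beta leads were less far apart, at 7.34, 12.4, 5.77, 7.17 and 6.03% in the ST2- libraries of mice 1 to 5. For Trbv16 in mouse 2 and Trbv30 in mouse 3 that ST2- library held the highest share among the mouse's other libraries. Bulk counts do not pair an alpha with a beta chain, so whether Trav19 and Trbv30 of mouse 3 came from the same cells was not tested.

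In skin ST2+ libraries the leading beta genes were Trbv13-3 in mouse 1 (27.7%, 294 of 1063 counts), Trbv1 in mice 2 (22.2%) and 5 (28.0%) and Trbv16 in mice 3 (18.98%) and 4 (11.5%). Trbv16 took 16.3, 7.26, 18.98, 11.5 and 15.8% in skin ST2+ and 3.30, 5.98, 11.1, 8.95 and 20.6% in skin ST2- libraries of mice 1 to 5, so the populations overlapped. The leading alpha genes were Trav5-1 in mouse 1 (16.6%), Trav17 in mice 2 (13.5%) and 4 (9.88%), Trav16n in mouse 3 (9.07%) and Trav6n-6 in mouse 5 (12.4%), with Trav5-1, Trav16n and Trav6n-6 named because of their values. Their shares in the ST2- skin library of the same mouse were 0.836% for Trav5-1, 7.43 and 6.24% for Trav17, 5.72% for Trav16n and 8.19% for Trav6n-6. Trav6n-6 took at most 1.85% in the skin libraries of the other 4 mice. In mice 2 to 5 the leading alpha gene of ST2+ skin cells thus took at least 5.72% in ST2- skin cells too, and in mouse 1 it did not.

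Trbv1 was high in some libraries of mouse 5, at 28.0% in skin ST2+, 26.4% in VAT ST2- (451 of 1707 counts) and 15.2% in VAT ST2+. The skin ST2- library of mouse 5 held 8.44%, and the median over this mouse's libraries other than skin ST2+ was 9.12%. In mouse 2 Trbv1 took 22.2% in skin ST2+ and 17.0% in skin ST2-. The VAT ST2- libraries of the other 4 mice held 8.19 to 9.71% of Trbv1. Over all 67 libraries the leading Trbv gene passed 25% in 4, all in VAT or skin, and the leading Trav gene in none.

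**Figure D3:**
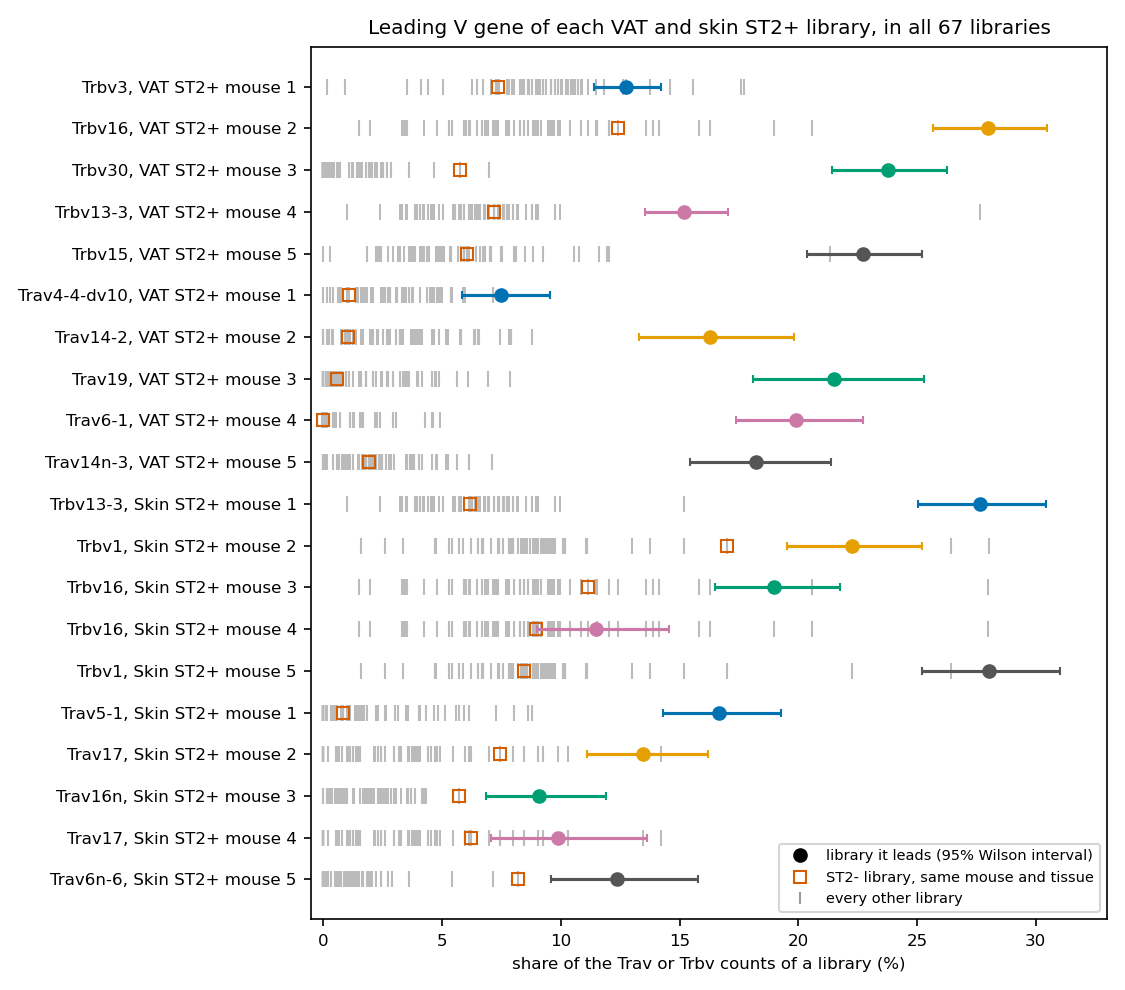
Share of the gene that led each VAT and skin ST2+ library, in percent of the Trav or Trbv counts, with its 95% Wilson interval, beside the share in the ST2- library of the same mouse and tissue and in every other library. Trbv30 of VAT mouse 3 (23.8%) and Trav6-1 of VAT mouse 4 (19.9%) lie beyond all other libraries, whose highest shares were 6.997% and 4.93%.

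Shared usage of a pair of libraries was the sum over genes of the smaller share, 100% for equal usage, again with no test. Between mice, VAT ST2+ libraries shared a mean of 28.7% of Trav usage (19.6 to 38.5%, 10 pairs) and 51.7% of Trbv usage (32.8 to 71.0%), the lowest of the 14 groups, against 63.8% and 86.4% among spleen CD44lo libraries. In skin, ST2+ and ST2- libraries shared 51.7 ± 9.24% of Trav usage within a mouse and 44.1% between mice, and 66.99 ± 12.1% and 62.4% of Trbv usage. In VAT they shared 38.0 ± 11.0% of Trav usage within a mouse and 37.8% between mice, and 63.15 ± 8.86% and 60.4% of Trbv usage. With each mouse left out, the within-mouse value minus the between-mice value in VAT ran from -2.67 to 3.21 percentage points for Trav and from 1.27 to 4.13 for Trbv. Over all pairs from different groups, the same mouse gave 51.0% and different mice 50.5% for Trav, and 74.9% and 74.4% for Trbv.

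**Figure D4:**
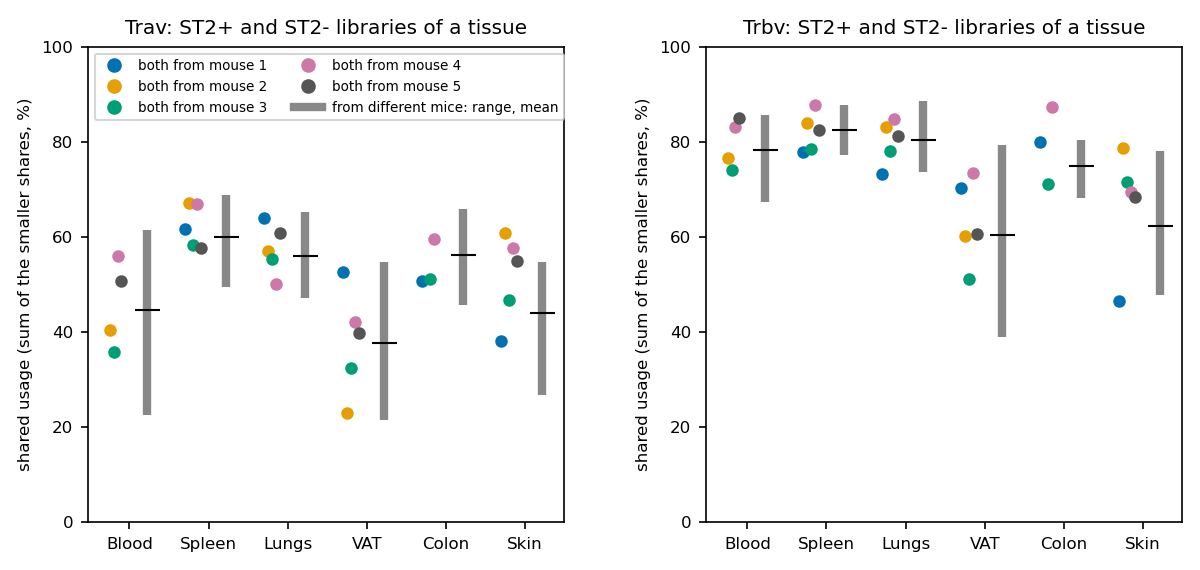
Shared usage of ST2+ and ST2- libraries of a tissue, in percent, for Trav and Trbv, with both libraries from the same mouse or from different mice. In skin the mean for Trav is 51.7% within a mouse and 44.1% between mice, and in VAT 38.0% and 37.8%.

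Single genes were tested with edgeR's quasi-likelihood test on 17534 genes, adjusted by Benjamini-Hochberg over all of them, at an adjusted p of 0.05 and, where a pair of groups was compared, a fold of 1.5. This test gives no SE. The SE printed beside a log2 fold change is its absolute value divided by the square root of the test's F statistic. It is an approximation and no basis for an interval. Of the 89 genes 85 passed the filter on low values, namely 22 Trbv and 63 Trav genes, and Trav6d-3, Trav9d-4, Trav18 and Trav23, with 13 to 29 counts each, did not. Over the 14 groups 16 of 85 V genes were called, where 56% of all genes were. By adjusted p in this test they were led by Trbv13-2 (9.75e-10), Trbv2 (2.28e-09), Trbv19 (1.41e-06) and Trbv12-2 (6.41e-06), and 11 were Trbv genes. Counting V genes against the V total of each library called 9, where 11384 of 17534 genes were called. Voom with quality weights called 39, where 12488 of all genes were called. For a tissue by ST2 interaction edgeR called 0 V genes, where 0.981% of all genes were called, with 9 at an unadjusted p under 0.05. Voom called 4 V genes for it, where 905 of all genes were called. Between the 5 mice edgeR called 0, where 5.83% of all genes were called, with 3 at an unadjusted p under 0.05. DESeq2 called 1 between mice, where 1489 of all genes were called.

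Between ST2+ and ST2- cells of VAT 3 of 85 V genes fell, where 2.4% of all genes were called. The median log2 fold change of the 22 Trbv genes was -0.63, with 15 of them lower in ST2+ cells. That of the 63 Trav genes was -0.36, with 36 lower, beside -0.01 over all genes. The values of single Trbv genes thus include a shift shared by much of the chain. Trbv2 took 3.46, 1.21, 1.51, 0.862 and 1.14% in ST2+ and 5.43, 3.08, 3.17, 2.96 and 3.63% in ST2- libraries of mice 1 to 5. It was lower in ST2+ cells of every mouse, while the groups overlapped through mouse 1, with a log2 fold change of -1.52 (SE 0.383, edgeR adjusted p = 0.0148). Trbv4 had 2, 4, 1, 0 and 0 counts in ST2+ and 25, 7, 10, 9 and 17 in ST2- libraries, which did not overlap, with a log2 fold change of -3.03 (SE 0.777, edgeR adjusted p = 0.0170). Trav6-2 had 0 counts in 5 ST2+ libraries and 23, 34, 18, 0 and 8 in ST2- libraries, at least 27.7-fold lower against a floor of 3 counts over the group (edgeR adjusted p = 0.0297). Trbv2 lost its call without mouse 2, 3, 4 or 5 (adjusted p of 0.1003, 0.123, 0.0841 and 0.0627 in edgeR) and under voom (0.161). Leaving out a mouse moved the number of calls between 0, without mouse 3 or mouse 4, and 5, without mouse 1. The leading genes of single mice were not called. Trbv16 had a log2 fold change of -0.67 (SE 0.425), Trbv15 of 0.79 (SE 0.555) and Trbv30 of 0.13 (SE 1.44).

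In skin Trbv12-2 was called between ST2+ and ST2- cells, 1 of 85 V genes where 0.148% of all genes were called. It took 0.470, 1.81, 6.52, 6.93 and 2.86% in ST2+ and 16.9, 4.90, 8.17, 9.41 and 13.04% in ST2- libraries of mice 1 to 5. It was lower in ST2+ cells of every mouse and the groups overlapped, with a log2 fold change of -1.57 (SE 0.354, edgeR adjusted p = 0.0363). With each mouse as a replicate block 0 were called, the adjusted p of Trbv12-2 being 0.0501, and the call was also lost without mouse 1, 2, 4 or 5, where its adjusted p in edgeR was 0.548, 0.141, 0.0992 and 0.267.

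In blood 2 of 85 V genes were called between ST2+ and ST2- cells, where 2.98% of all genes were. Trav6-3 had 9, 1, 6 and 6 counts in ST2+ libraries of mice 2 to 5 and 0 in all 5 ST2- libraries, at least 8.27-fold higher against a floor of 3 counts (edgeR adjusted p = 0.00879), with reads that may belong to its near copy. Trav14-2 took 0, 0, 0.409 and 0.219% in ST2+ and 3.04, 2.04, 5.15, 5.78 and 6.40% in ST2- libraries. These did not overlap, with a log2 fold change of -4.57 (SE 1.16, edgeR adjusted p = 0.0147), and the call was lost without mouse 2, 3, 4 or 5 (adjusted p of 0.0798, 0.102, 0.0568 and 0.0712). In spleen, lungs and colon edgeR called 0 of 85, where 0.2%, 0.548% and 0.0513% of all genes were called. In each of these 3 tissues 2 V genes had an unadjusted p under 0.05, and DESeq2 called 0. Voom called 1 in spleen, 1 in lungs and 0 in colon, where it called 212, 374 and 274 of 17534 genes.

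Between CD44hi and CD44lo ST2- Tregs edgeR called 0 of 85 V genes in spleen and in lungs, where 3.97% and 4.23% of all genes were called. At an unadjusted p under 0.05 there were 0 in spleen and 3 in lungs, and DESeq2 called 0 in both. Voom called 0 and 1, where it called 1665 and 1300 of 17534 genes. The median log2 fold change of the 22 Trbv genes was -0.09 in spleen and 0.06 in lungs, and that of the 63 Trav genes -0.01 and 0.34, beside 0 over all genes in both, with 19 of 63 lower in CD44hi in lungs. Trac had a log2 fold change of 0.35 in the lung comparison (SE 0.113, edgeR adjusted p = 0.0619).

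Beta V transcripts were scarcer in skin than in spleen. Pooling ST2+ and ST2- CD44hi cells gave 10 libraries of 5 mice in skin and in spleen. Summed Trbv counts were 456 ± 41.1 CPM in skin (387 to 509, median 466, n = 10) and 1161 ± 91.9 CPM in spleen (1003 to 1278, median 1164, n = 10), which did not overlap. Relative to spleen, summed Trbv CPM was 39.3% in skin, 75.97% for VAT, 76.3% for colon, 90.1% for lungs and 117% for blood. The constant region gene Trbc1 stood at 72.6%, Trbc2 at 72.9% and Trac at 100.3% in skin, and summed Trav at 72.2%. The ratio of summed Trbv to summed Trbc CPM was 2.28 ± 0.193 in spleen and 1.24 ± 0.188 in skin, with 1.80 ± 0.352 in VAT and 1.73 ± 0.190 in colon.

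**Figure D5:**
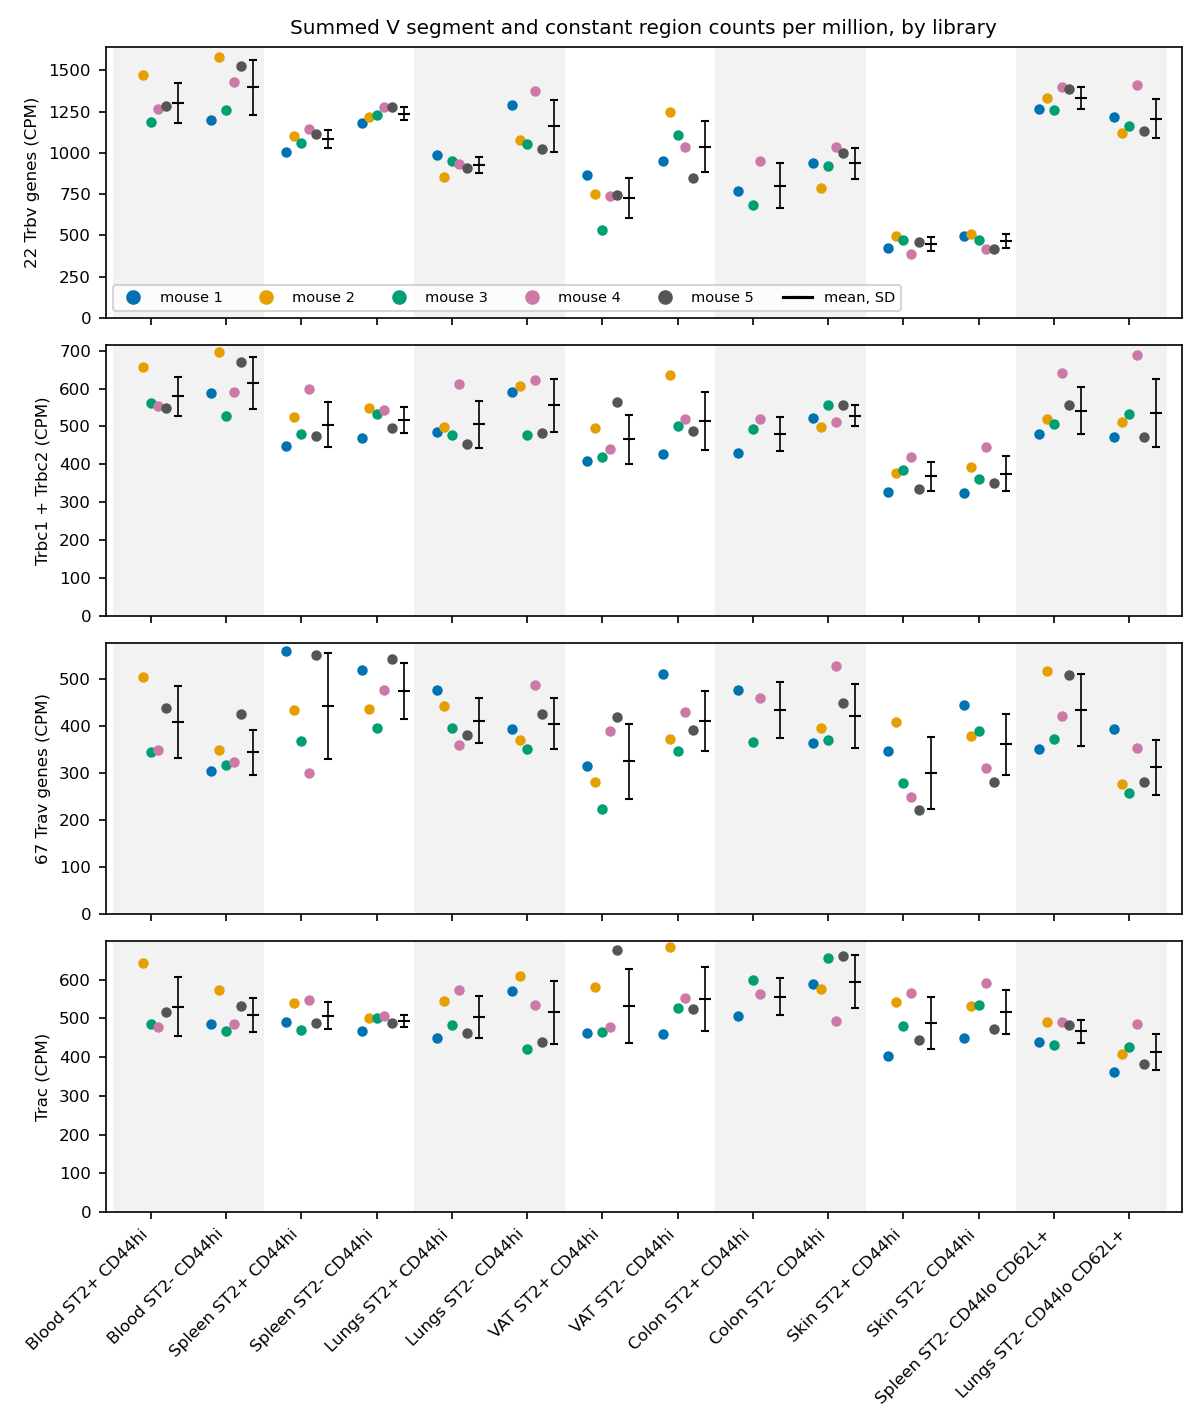
Summed Trbv, Trbc1 plus Trbc2, summed Trav and Trac counts in each library, in CPM, by group, with points coloured by mouse and the group mean and SD in black. Summed Trbv lies between 387 and 509 CPM in skin, below all spleen CD44hi libraries (1003 to 1278), while Trac averages 502 CPM in skin and 500.1 CPM in spleen CD44hi cells.

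Against spleen, 18 of 85 V genes fell in skin, where 36.6% of all genes were called. All 22 Trbv genes had a negative log2 fold change, with a median of -1.42 against -0.01 over all genes, and 16 of them passed the test. The smallest adjusted p in edgeR belonged to Trbv2 (log2 fold change -2.36, adjusted p = 2.03e-10), Trbv13-2 (-1.31, adjusted p = 3.17e-09), Trbv19 (-1.40, adjusted p = 1.08e-07) and Trbv12-2 (-1.30, adjusted p = 1.15e-05). Trbv1, Trbv15, Trbv16, Trbv17, Trbv29 and Trbv30 did not pass, with log2 fold changes of -0.58, -0.76, -0.63, -1.65, -0.80 and -0.46. Trav3-4 had 0 counts in all 10 skin libraries and 141 over 10 spleen libraries, at least 37.0-fold lower (edgeR adjusted p = 0.000877). Mouse 1 carried most of these spleen counts, and mice 3 and 5 none. With the V total of both chains as library size, 5 were called, 2 higher and 3 lower, where 8468 of 17534 genes were called. This scales a gene to all V counts and not to those of its own chain. Summed Trbv over summed Trav CPM was 2.63 ± 0.579 in spleen and 1.43 ± 0.290 in skin, so the chain balance enters these calls. By share, Trbv2 fell from 5.43 ± 1.47% in spleen to 2.28 ± 1.16% in skin, while Trbv13-2 stood at 8.94 ± 1.73% and 8.003 ± 2.95%.

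In VAT 5 of 85 V genes fell against spleen, where 14.6% of all genes were called. They were Trbv2 (log2 fold change -1.46, edgeR adjusted p = 2.78e-05), Trbv4 (-1.69, adjusted p = 0.0138), Trbv12-2 (-0.73, adjusted p = 0.0210), Trbv12-1 (-1.76, adjusted p = 0.0225) and Trav3-4, with 0 counts in 10 VAT libraries and at least 41.1-fold lower (adjusted p = 0.00182). With the V total as library size 1 was higher and 4 lower, where 3500 of 17534 genes were called. Without mouse 4 the number called was 2 and without mouse 1 it was 8. Trav3-4 was uneven within spleen, at 4.77, 1.37, 0, 1.08 and 0% in ST2+ and 2.81, 0.607, 0, 1.20 and 0% in ST2- libraries, so mouse 1 carried most of its counts and mice 3 and 5 none.

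In colon 3 of 85 V genes were called against spleen, where 16.6% of all genes were. Trbv2 fell (log2 fold change -0.81, edgeR adjusted p = 0.0356), as did Trav2 (-4.40, adjusted p = 0.0264), and Trav13d-1 rose (2.97, adjusted p = 0.0496). In lungs 1 of 85 was called, Trav13d-1 (3.23, edgeR adjusted p = 0.0423), where 8.61% of all genes were, and 0 with each mouse as a replicate block. Trav13d-1 averaged 0.294% in lungs and 0.216% in colon and was at 0 in 9 of 10 spleen libraries. In blood 3 of 85 were called, Trav3-4 (-4.52, edgeR adjusted p = 0.0423), Trav6-3 (-2.26, adjusted p = 0.0440) and Trav14-2 (-2.22, adjusted p = 0.0338), all lower, where 6.3% of all genes were, and 1 with the replicate block. Leaving out any mouse left 0 or 1 in blood, in lungs and in colon.

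Genes that work beside the V segments were followed from a list. Of the 3 constant genes and the 4 CD3 chains, which carry the receptor's signal, none passed both thresholds in skin against spleen, where Trac, level in CPM, had a log2 fold change of 0.21 under TMM scaling. Most were short of the fold only. Cd3e had a log2 fold change of -0.55 (edgeR adjusted p = 1.95e-10), Cd3d of -0.39 (adjusted p = 8.69e-05) and Cd247 of -0.31 (adjusted p = 0.000149). Trbc1 and Trbc2 both had -0.25 (edgeR adjusted p of 0.0197 and 0.00692), and the adjusted p of Trac was 0.0253. Cd3g had -0.16 (edgeR adjusted p = 0.102). Rag2 was at 0 in 66 of 67 libraries, Rag1 in 63, Ptcra in all 67 and Dntt, which adds bases at the joins, in 49. Zbtb16, a factor of innate-like T cells, rose in skin (edgeR adjusted p = 0.00147) and colon (adjusted p = 0.00339) against spleen, from 0 in all spleen libraries to means of 3.32 CPM in skin ST2+ and 3.44 CPM in colon ST2+ cells, with 4 of 5 skin ST2- libraries at 0. It belongs to a list of innate-like markers with Klrb1c, Trav1 and Trav11, the last with 0 counts. The median sum of this list was 7.02 CPM in spleen ST2+ and 8.78 CPM in spleen ST2- CD44hi libraries. In colon it was 8.34 and 8.82 CPM, and in skin 20.8 and 0.647 CPM. Whether innate-like T cells were present was not tested. Summed over 7 gamma-delta T cell markers, receptor genes and the non-receptor gene Sox13, libraries held at most 264 CPM, in 1 skin ST2- library. The gamma constant gene Tcrg-C2 was lower in blood ST2+ than ST2- cells (edgeR adjusted p = 0.0335). The 2 beta constant genes were used about alike, Trbc1 making up 49.3 ± 2.33% of their summed counts over 67 libraries (43.7 to 56.0%).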

How the data were processed

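Tregs of 5 mice were measured by RNA sequencing of small sorted pools. The authors made cDNA with SMART-Seq v4 and NexteraXT libraries, sequenced single reads of 58 bases, aligned them with STAR to GRCm38 and counted reads per gene with HTSeq; the submitters' processing notes name CASAVA 1.8.2 and HTSeq 0.4.1. The deposited values are raw counts per gene. Of the IDs, 53274 of 53465 were found in the annotation. Reads from near-identical V genes can be lost or split by such counting.

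The members and lists were chosen with earlier results of these data known. Named were all Trbv genes, the 12 Trav genes of highest mean share, at most 6 called genes per comparison, leading genes above 25%, and receptor, CD3, recombination, gamma-delta and innate-like genes; others are said to be named because of their values. Shares, effective numbers (inverse of the unbiased Simpson index) and shared usage were computed with Python 3.11.15 and pandas 2.3.3. edgeR 4.0.16 (R 4.3.3) was run with TMM factors on genes with 1 CPM in 10% of the 67 libraries, in 1 fit of the 14 groups, and the code was tested on simulated data. The study used voom with quality weights, run here with limma 3.58.1 beside DESeq2 1.42.0. p-values measure the spread between the libraries within a group, of 3 to 5 mice each. The fit of the 14 groups held no mouse term. Libraries of the same mouse in different groups were thus treated as independent, also where a tissue was compared with spleen.

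Replicate numbers stand for the same mouse in every group, per the labels. Deviations from the group means had a median correlation of 0.0252 over 416 pairs of libraries from the same mouse and -0.00642 over 1666 pairs from different mice. The alternatives were the mouse as a block, other library sizes, filters and tools, V families, all 70 libraries, and leaving out each mouse.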

Additional observations from a re-analysis of the deposited data

Results flagged for a closer look

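Of 90 groups of samples searched, 6 held a sample far from the others, and chance gives about 1 in 20. The VAT ST2+ library of mouse 1 had 27.9 effective Trav genes, the nearest other 12.5, and its Trbv2 share of 3.46% stood apart from the next at 1.51%. The Trbv2 share of VAT ST2- mouse 1, 5.43%, also stood apart, the next being 3.63%. In VAT ST2- mouse 5 the leading Trbv gene took 26.4%, the next library's 12.6%. The spleen CD44lo library of mouse 1 had 29.4 effective Trav genes, the nearest 33.03, and the blood ST2+ library of mouse 3, of 55 cells, had 11.5 effective Trbv genes, the nearest 13.5.

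The libraries left out for low counts also held V reads. Blood ST2+ mouse 1, with 66 cells, held 176 Trav counts, led by Trav4-3 at 17.0%, and 807 Trbv counts, led by Trbv13-2 at 28.9%. Colon ST2+ mouse 5 held 19 Trav and 32 Trbv counts.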

How the results depend on the processing

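No V gene called in the edgeR fit of the 14 groups changed direction under an alternative that tested it. Genes called only under an alternative were not part of this check. With the V total as library size, 2 V genes were called higher in skin than spleen, where 8468 of 17534 genes were called. The fit of the 14 groups called 0 higher there, where 36.6% of all genes were called. Some differences in effective number changed sign, among them spleen Trav and blood Trbv with genes summed to families. Over the results that answer a comparison, 392 values stayed within their limits and 68 moved, and of the named genes' values 499 kept their call and 163 lost it. Where not said otherwise the cause was not tested.

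Leaving out each mouse in turn gave 1 to 2 called V genes for ST2 in blood, 0 to 5 in VAT and 0 to 1 in skin, 0 to 1 for blood, lungs and colon against spleen, 2 to 8 for VAT against spleen, and 0 to 1 between mice. With the mouse as a replicate block, 0 were called for ST2 in skin, 1 for blood and 0 for lungs against spleen, and this pairing moved no other count by over 1.5 times.

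Voom called 1 for ST2 in spleen, 1 in lungs and 0 in skin, where it called 212, 374 and 55 of 17534 genes. For CD44 in lungs it called 1, beside 1300 of all genes. Against spleen it called 6 for lungs, 12 for VAT and 7 for colon, beside 2630, 3052 and 3969 of all genes. Over the 14 groups it called 39 and for the interaction 4, beside 12488 and 905 of all genes. DESeq2 called 6 for ST2 in VAT, 1 for blood and 0 for lungs against spleen, and 1 between mice. Over all 17534 genes its calls there were 692, 1270, 1608 and 1489. The V families numbered 37 among 17486 features tested. They gave 0 for ST2 in blood, 0 for blood, 0 for lungs and 3 for VAT against spleen, and 9 over the 14 groups. Over all features the calls there were 520, 1100, 1508, 2562 and 9824. The V total as library size gave 0 for ST2 in skin, 5 for skin against spleen and 9 over the 14 groups. Over all genes its calls there were 18, 8468 and 11384 of 17534. All 70 libraries gave 0 for ST2 in skin, beside 14 of 17600 genes. A filter of 1 CPM in 50% of libraries left 72 V genes among 12038 genes. It gave 5 for ST2 in VAT, 0 for lungs and 1 for colon against spleen, beside 470, 1250 and 1554 of all genes. With no filter, 89 V genes among 34758 gave 0 for lungs and 1 for colon against spleen, beside 1278 and 3705.

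Counted per family, the ST2+ minus ST2- difference in effective number was -2.45 for VAT Trav, 0.72 for spleen Trav and 0.18 for blood Trbv. Over all V counts as 1 total it was 1.21 in lungs, 2.80 in colon and -5.13 in skin, and CD44hi minus CD44lo was 2.23 in spleen and 2.44 in lungs. With 324 to 1444 Trav counts from at most 220 cells a library, counting limits what a low share can show.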
